A study of Mus musculus with 18 samples.

Results

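The Hox genes encode homeodomain transcription factors that give cells their position along the head-to-tail axis of the embryo. In the mouse they lie in 4 clusters, a to d, and within a cluster the genes carry paralog numbers that follow their order on the chromosome. Genes with low numbers are used from the hindbrain backwards and genes with high numbers only towards the tail, and many adult tissues, fat depots among them, keep part of the pattern they acquired in the embryo. The 39 rows of the deposited table that carry the symbol of a Hox gene of cluster a, b, c or d were taken from 54347 rows in all, and they are the 39 Hox genes that GENCODE M21 annotates. Cluster a holds 11 of them, cluster b 10, cluster c 9 and cluster d 9.

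Polyadenylated RNA was sequenced from 3 fat depots of 6 mice. The brown depot was taken from between the shoulder blades (interscapular, iBAT), and the white depots were the subcutaneous fat of the groin (inguinal, iWAT) and the visceral fat beside the epididymis (epididymal, eWAT). All mice were on the C57BL/6N background, fed chow and 12 weeks old. The 3 knockout mice (ko) carried a germ line deletion, made with CRISPR/Cas9, that included exon 1 of the long noncoding RNA gene Gm15551 and so was not limited to fat cells, and the 3 wild type mice (wt) were litter mates. This gave 18 libraries, 3 per genotype in each depot, with the same 6 mice in all 3 depots. Because the 6 libraries of a depot came from different mice, the spread used by the tests below is that between mice, with differences of dissection and library included. The main tests between depots held no term for the mouse, and fits with one are given beside them.

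Total counts lay between 14997901 and 34389586 per library, and 3 counts, the most that a count of 0 allows, corresponded to 0.0728 to 0.235 CPM (counts scaled to a common library size). These limits cover counting error only. Gm15551 had 40 to 316 counts in the 9 wild type libraries and 0 to 4 in the 9 knockout libraries. The depot labels were checked against defining markers. Ucp1, the uncoupling protein of brown adipocytes, was at 3422 to 7994 CPM in iBAT and at most 55.3 CPM in the white depots, and Wt1, which marks visceral fat, was at 5.05 to 14.4 CPM in eWAT and at most 0.0974 CPM elsewhere. Libraries that stood apart were eWAT ko replicate 3, in which 8 epididymis markers summed to 5095 CPM against a median of 1.503 CPM over the eWAT libraries, iWAT ko replicate 1, with 4231 CPM of skeletal muscle markers, and iWAT wt replicate 3 and ko replicate 2, with 688 and 294 CPM of lymph node markers. At a lower level, eWAT wt replicate 1 held 34.6 CPM of epididymis markers. Fewer cells of a type and less RNA per cell cannot be told apart in bulk tissue.

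The clusters lie on chromosomes 6, 11, 15 and 2 (GRCm38, GENCODE M21). Cluster a lies on the minus strand of chromosome 6. Cluster b spans 96194316 to 96368256 on chromosome 11, cluster c 102921103 to 103036852 on chromosome 15 and cluster d 74668310 to 74765142 on chromosome 2 (all plus strand). Of the 39 genes, 22 have a promoter window in the RefSeq table for GRCm38.p6, which runs from 250 bases before to 50 bases after an annotated start. The windows of 3 genes are shown because the results below turn on them: Hoxa5 had the highest Hox level in iBAT, Hoxa9 was high in iWAT, and Hoxb8 stood furthest of the Hox genes of cluster b above the rest of its depot in 1 eWAT library. Each is written 5′ to 3′ on the strand of its gene. Capitals mark a match, on either strand, to TGATNNAT, the form of the site that Pbx and Hox proteins bind together, and no other motif was searched.
Hoxa5, chr6:52204538-52204837, minus strand: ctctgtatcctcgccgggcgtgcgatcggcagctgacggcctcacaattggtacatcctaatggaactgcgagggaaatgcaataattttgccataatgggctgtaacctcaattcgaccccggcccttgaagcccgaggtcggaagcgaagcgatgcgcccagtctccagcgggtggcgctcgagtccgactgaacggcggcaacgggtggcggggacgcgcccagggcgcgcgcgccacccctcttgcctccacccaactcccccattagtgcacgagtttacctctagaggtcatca
Hoxa9, chr6:52227321-52227620, minus strand: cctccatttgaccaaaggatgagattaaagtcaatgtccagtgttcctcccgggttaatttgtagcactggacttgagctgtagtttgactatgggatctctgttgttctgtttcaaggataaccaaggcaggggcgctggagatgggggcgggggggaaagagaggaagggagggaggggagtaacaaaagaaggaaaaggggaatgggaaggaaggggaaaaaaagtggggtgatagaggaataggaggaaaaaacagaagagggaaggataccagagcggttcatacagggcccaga
Hoxb8, chr11:96281655-96281954, plus strand: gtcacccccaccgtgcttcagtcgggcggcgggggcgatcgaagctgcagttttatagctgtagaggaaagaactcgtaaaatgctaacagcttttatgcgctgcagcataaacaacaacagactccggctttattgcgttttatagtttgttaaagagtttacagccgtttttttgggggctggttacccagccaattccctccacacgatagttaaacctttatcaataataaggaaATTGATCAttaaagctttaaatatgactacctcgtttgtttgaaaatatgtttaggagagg
The Hoxb8 window held the motif, written here on the opposite strand, and the Hoxa5 and Hoxa9 windows held no match. Matches were present in 4 of the 24 Hox windows (Hoxa2, Hoxb1, Hoxb8 and Hoxd11) and in 8.85% of all 32851 windows in the table. The Hoxa5 window held 29 CG dinucleotides, the Hoxb8 window 13 and the Hoxa9 window 4, beside a median of 14.5 over the Hox windows and of 7 over all windows.

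The first question was which Hox genes each depot used. A gene was called detected in a depot where all 6 libraries held more than 3 counts of it. By this rule 23 of the 39 genes were detected in iBAT, 28 in iWAT and 25 in eWAT, and the 23 genes of iBAT were detected in all 3 depots. They included Hoxa2 to Hoxa7 and Hoxa9, Hoxb2 to Hoxb9, Hoxc4, Hoxc5, Hoxc6 and Hoxc8, and Hoxd4, Hoxd8 and Hoxd9. The detected genes of iBAT ended at paralog 9, and those of both white depots ended at paralog 10. In iWAT, Hoxa10, Hoxc9, Hoxc10, Hoxd3 and Hoxd10 were added, and in eWAT Hoxc9 and Hoxd10 were added.

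Of the remaining genes, 7 held at most 3 counts in every library, namely Hoxb1 and Hoxd1 at the head end of their clusters and Hoxb13, Hoxc12, Hoxc13, Hoxd12 and Hoxd13 at the tail end. Hoxc11 held 3 to 15 counts per library in iWAT, 41 in all, none in iBAT and 2 in eWAT. Its pooled rate in iWAT was at least 7.28-fold that in iBAT, taken against 3 counts over the 6 libraries, and 18.3 times that in eWAT, with a counting interval of 4.74 to 156. Hoxa11, Hoxa13 and Hoxd11 held over 3 counts only in eWAT ko replicate 2, with 18, 15 and 9 counts. The filter on low counts left 28 of the 39 genes for testing, 11 were not tested, and a gene could pass it through the depot where it was high.

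**Figure D1:**
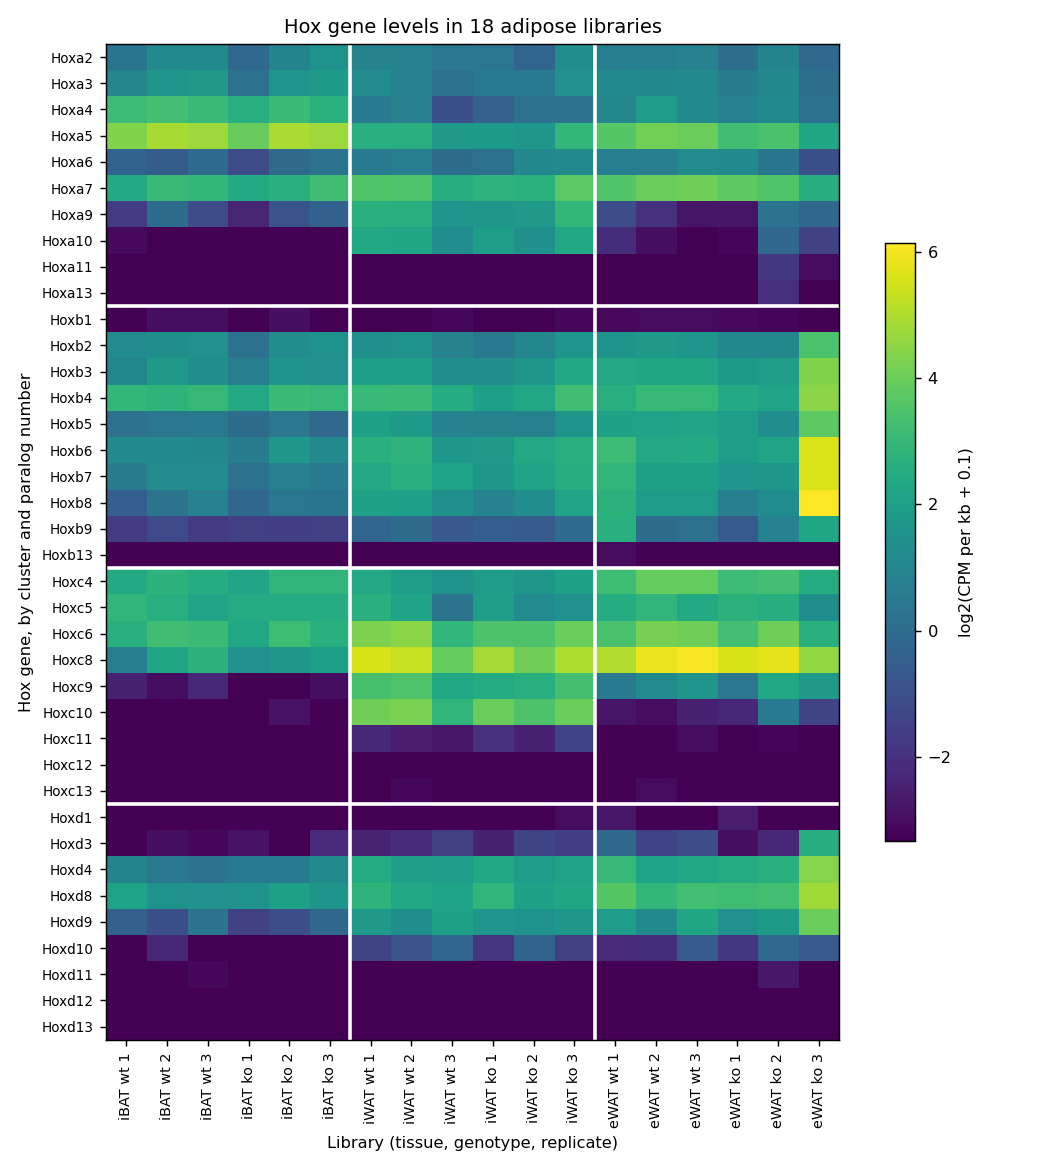
Level of the Hox genes in the 18 libraries, as log2 of CPM per kb of exon plus 0.1, with genes in rows by cluster and paralog number and libraries in columns by depot, genotype and replicate. The lower rows of clusters a and c are dark in the iBAT columns and bright down to paralog 10 in the iWAT columns, and eWAT ko replicate 3 is brighter than the other eWAT columns over Hoxb2 to Hoxb8.

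Levels were compared between genes per length of exon (CPM per kb). In iBAT the highest median level was that of Hoxa5, at 26.8 CPM per kb, followed by Hoxa4 at 8.45, Hoxb4 at 7.66 and Hoxc6 at 7.52. In iWAT Hoxc8 led, at 14.9 to 47.5 CPM per kb over the libraries, followed by the medians of Hoxc10 at 15.9, Hoxc6 at 13.4 and Hoxa7 at 9.27. In eWAT Hoxc8 led again with 50.2 CPM per kb, followed by Hoxc6 at 13.6, Hoxa7 at 12.9 and Hoxa5 at 11.5. The leading gene of iBAT was thus a paralog 5 gene of cluster a, and the leading gene of both white depots was a paralog 8 gene of cluster c.

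Summed over the 39 genes, the level lay at 64.0 to 107 CPM per kb in the iBAT libraries, at 92.3 to 194 in those of iWAT and at 145 to 368 in those of eWAT. The 3 lowest iWAT sums and the highest eWAT sum belonged to the 4 libraries with markers of muscle, lymph node or epididymis, and without these the ranges were 173 to 194 and 145 to 199.8. Cluster a made up 46.2 to 51.8% of this sum in the iBAT libraries, 18.02 to 24.6% in iWAT, and in eWAT 4.18 to 22.4%. Cluster c made up 23.1 to 27.6% in iBAT, 41.5 to 54.9% in iWAT, and in eWAT 11.6 to 54.2%. For cluster b the shares were 18.9 to 20.5%, 14.6 to 24.1% and 14.3 to 65.1% in the same order, and for cluster d 4.28 to 8.19%, 6.40 to 14.2% and 7.61 to 19.2%. The lowest share of clusters a and c and the highest share of clusters b and d in eWAT belonged to eWAT ko replicate 3. Cluster a thus held a larger share in every iBAT library than in any white library.

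By paralog number, genes 9 to 13 made up 0.935 to 1.79% of the summed level in iBAT (median 1.53%), 2.97 to 8.76% in eWAT (median 5.83%) and 22.1 to 25.5% in iWAT (median 24.9%). Genes 1 to 4 made up 34.2 to 37.6% in iBAT, 19.7 to 24.3% in eWAT and 15.5 to 21.4% in iWAT. The mean paralog number, weighted by level, was 5.03 to 5.18 in iBAT, 6.19 to 6.54 in eWAT and 6.81 to 7.12 in iWAT. On this measure the 3 depots did not overlap, and iWAT, not eWAT, lay furthest towards the high paralog numbers. Without eWAT ko replicates 2 and 3 the share of genes 9 to 13 in eWAT was 2.97 to 7.22%. Few genes make up most of these sums, and no test was made on them.

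**Figure D2:**
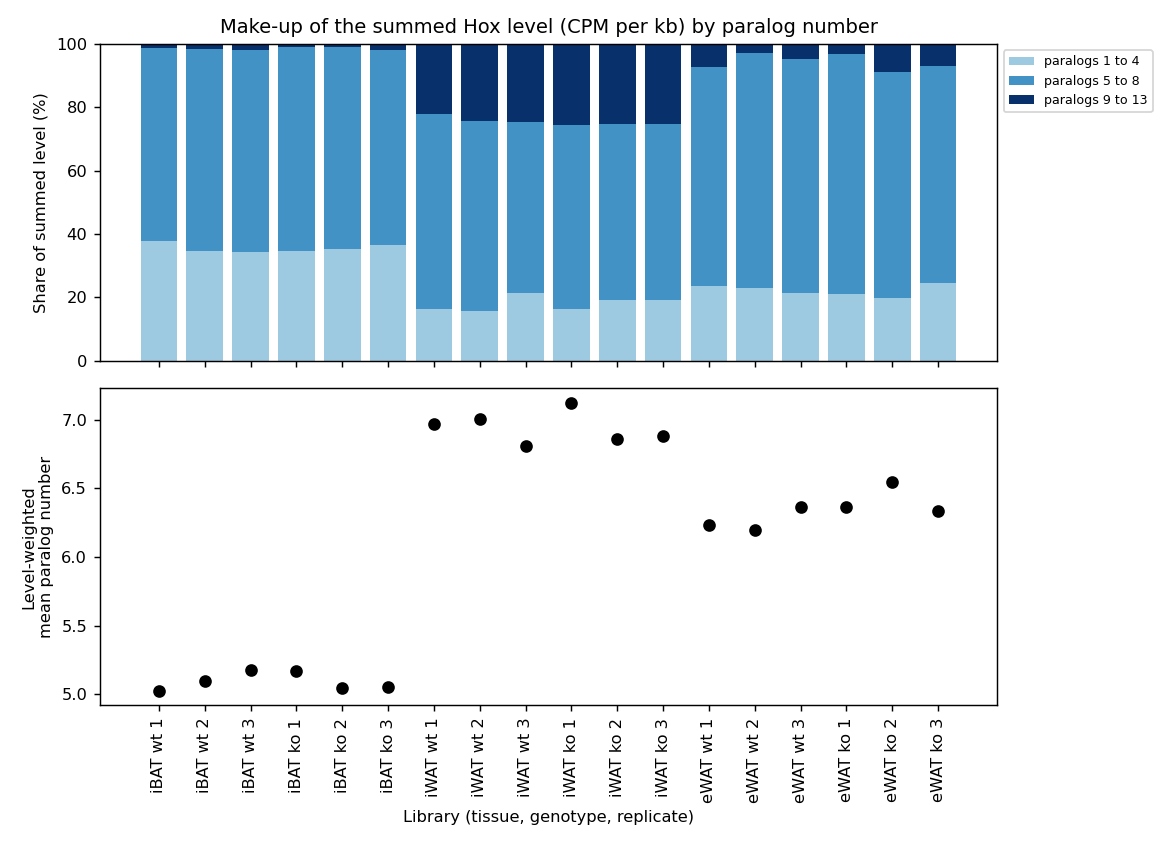
Make-up of the summed Hox level (CPM per kb) in each of the 18 libraries. The upper panel gives the share in percent of paralogs 1 to 4, 5 to 8 and 9 to 13, and the lower panel the mean paralog number weighted by level, with the iBAT libraries at 5.03 to 5.18, the eWAT libraries at 6.19 to 6.54 and the iWAT libraries at 6.81 to 7.12.

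The depots were then compared gene by gene by edgeR's quasi-likelihood test over all 18 libraries, with p-values adjusted over 18728 genes. Of the 28 Hox genes tested, 22 differed between depots, while 60.9% of all genes tested did so. Between iBAT and iWAT, 4 Hox genes were higher in iBAT, where 24.0% of all genes tested were, and 14 were lower, where 30.3% were. Between iBAT and eWAT, 2 were higher in iBAT against a background of 24.4%, and 19 were lower against 30.2%. Between iWAT and eWAT, 4 were higher in iWAT against 5.70% of all genes, and 5 were lower against 4.50%. Those higher in iWAT include Hoxa10 and Hoxc10, which were not detected in eWAT or iBAT and passed the filter on low counts through iWAT. The contrasts share libraries, so their calls are not independent of each other.

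The median log2 fold change of the Hox genes tested was -1.13 for iBAT against iWAT beside -0.14 for all genes tested, -1.68 for iBAT against eWAT beside -0.17, and -0.73 for iWAT against eWAT beside 0.01. The 6 libraries of both depots did not overlap for 14 Hox genes between iBAT and iWAT (34.6% of all genes tested), for 12 between iBAT and eWAT (37.3%) and for 5 between iWAT and eWAT (4.62%). On the paralog axis, the genes 9 to 13 were all lower in iBAT than in iWAT (7 of 7 tested), and 6 of 7 were lower in iBAT than in eWAT. Of these 7, Hoxa10, Hoxc10, Hoxd10 and Hoxc9 held 1, 1, 3 and 9 counts in all in iBAT and passed the filter on low counts only through the white depots, so that a lower value in iBAT was fixed for them by the filter. Hoxa10 and Hoxc10 passed it through iWAT, so that a higher value in iWAT than in eWAT was fixed for them as well. Of the genes 5 to 8, 2 were higher and 6 lower in iBAT than in iWAT, and 1 was higher and 9 lower in iBAT than in eWAT, out of 11. Of the 10 genes tested among paralogs 1 to 4, 2 were higher and 1 lower in iBAT than in iWAT, and 1 was higher and 4 lower in iBAT than in eWAT, the latter including Hoxd3, with 13 counts in all in iBAT. The shares of all genes are those given above, and no count by paralog number was tested against them.

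Over the 23 genes detected in all 3 depots, the log2 fold change fell with the paralog number for iBAT against iWAT (Pearson's r = -0.63, Spearman's rho = -0.72) and for iBAT against eWAT (r = -0.56, rho = -0.57, and r = -0.45 without eWAT ko replicates 2 and 3). Over all 28 genes tested, which include those near 0 in iBAT, r was -0.68 and -0.61. For iWAT against eWAT, r was 0.07 and rho was -0.22 over the 23 genes, with r = 0.26 without eWAT ko replicates 2 and 3, and over the 28 genes r was 0.47 and 0.54 without them. Within clusters, the relation for iBAT against iWAT was r = -0.55 over the 8 such genes of cluster a, -0.87 over the 8 of cluster b and -0.97 over the 4 of cluster c, while cluster d held 3. For iBAT against eWAT it was -0.24, -0.89 and -0.86 in the same order, and 0.08, -0.81 and -0.84 without eWAT ko replicates 2 and 3, so the sign for cluster a depended on these libraries. For iWAT against eWAT the values were 0.56, -0.82 and 0.50, and that of cluster b was -0.34 without both libraries. These values describe genes within the same libraries, which are not independent replicates, and neighbouring genes share reads in places.

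**Figure D3:**
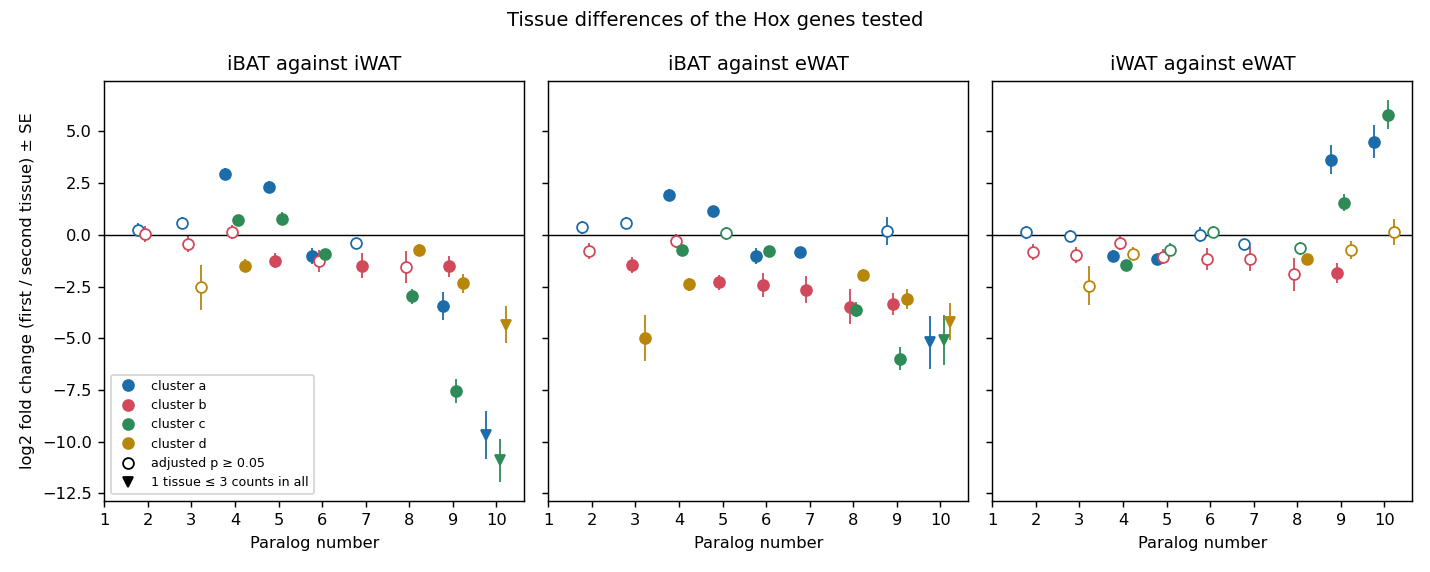
Log2 fold change with its SE for the Hox genes tested, against paralog number, for the 3 depot contrasts, coloured by cluster. Filled symbols passed an adjusted p of 0.05 and open symbols did not, and triangles mark genes with at most 3 counts in all in iBAT, whose fitted value depends on the prior count. In both iBAT panels Hoxa4 and Hoxa5 lie above 0, and the genes of paralogs 9 and 10 lie below 0 apart from Hoxa9 against eWAT, at 0.19.

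The genes highest in brown fat were Hoxa4 and Hoxa5, neighbours in the middle of cluster a. Hoxa4 was at 9.71, 13.5 and 15.7 CPM in iBAT (lowest, median and highest of 6 libraries, here and below), at 0.627, 1.75 and 2.59 in iWAT and at 1.63, 3.31 and 5.77 in eWAT. The lowest iBAT library lay above every white library. Hoxa4 was higher in iBAT than in iWAT by 2.94 ± 0.31 on the log2 scale (SE; edgeR adjusted p = 6.37e-07) and than in eWAT by 1.94 ± 0.29 (edgeR adjusted p = 3.17e-05).

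Hoxa5, which acts in the patterning of the cervical and upper thoracic region and in lung development, was at 28.9, 50.2 and 56.7 CPM in iBAT, at 5.90, 8.97 and 14.2 in iWAT and at 8.86, 21.5 and 32.2 in eWAT. All iBAT libraries were above all iWAT libraries, while the lowest iBAT library, ko replicate 1, fell within the range of eWAT. The difference was 2.32 ± 0.28 for iBAT against iWAT (edgeR adjusted p = 3.38e-06) and 1.14 ± 0.27 for iBAT against eWAT (edgeR adjusted p = 0.00195). Both genes were also lower in iWAT than in eWAT, Hoxa5 at -1.18 ± 0.27 (edgeR adjusted p = 0.0126) and Hoxa4 at -1.004 ± 0.29 (edgeR adjusted p = 0.0380). The Hoxa4 difference between the white depots had an edgeR adjusted p of 0.0561 without eWAT ko replicates 2 and 3.

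Hoxc4 and Hoxc5, at the head end of cluster c, were higher in iBAT than in iWAT by smaller amounts. Hoxc4 was at 11.6, 16.2 and 18.6 CPM in iBAT, 7.06, 9.56 and 13.2 in iWAT and 14.7, 24.4 and 38.2 in eWAT. The iBAT libraries overlapped with both white depots, whereas every eWAT library was above every iWAT library. The contrasts were 0.71 ± 0.21 for iBAT against iWAT (edgeR adjusted p = 0.00775), -0.75 ± 0.21 for iBAT against eWAT (0.00547) and -1.46 ± 0.21 for iWAT against eWAT (0.000277). Hoxc5 was at 13.9, 17.2 and 23.1 CPM in iBAT, 3.50, 9.89 and 19.4 in iWAT and 7.87, 17.8 and 22.2 in eWAT, and only iBAT against iWAT passed the test, at 0.78 ± 0.31 (edgeR adjusted p = 0.0399). Without the 4 libraries that held markers of other tissues (eWAT ko replicate 3, iWAT ko replicates 1 and 2 and iWAT wt replicate 3) these differences between iBAT and iWAT were 0.51 for Hoxc4 and 0.45 for Hoxc5, with edgeR adjusted p of 0.0548 and 0.0997.

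In cluster c, the genes with paralog numbers 8 and 9 were lower in brown fat than in both white depots. Hoxc8, which patterns the thoracic region, was at 4.52, 10.1 and 19.1 CPM in iBAT, 42.1, 85.0 and 135 in iWAT and 69.0, 142 and 181 in eWAT. Every white library lay above every iBAT library, and the white depots overlapped. Hoxc8 was lower in iBAT, at -2.98 ± 0.35 against iWAT (edgeR adjusted p = 2.29e-06) and at -3.62 ± 0.36 against eWAT (edgeR adjusted p = 2.43e-07), and iWAT against eWAT was -0.65 ± 0.32, which did not pass the test (edgeR adjusted p = 0.213).

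Hoxc9, the next gene of the cluster, held 0 to 4 counts per iBAT library. It was at 0, 0.0646 and 0.259 CPM in iBAT, 11.8, 19.6 and 27.7 in iWAT and 3.004, 6.35 and 12.3 in eWAT. The iBAT libraries were again below all white libraries, and 1 eWAT library, ko replicate 2, reached into the range of iWAT. With 9 counts in all in iBAT, its pooled rate was 195 times that of iBAT in iWAT, with a counting interval of 102 to 426 (exact, 95%), and 71.4 times in eWAT, with 37.5 to 157. It was higher in iWAT than in eWAT by 1.55 ± 0.40 (edgeR adjusted p = 0.0217). Without iWAT ko replicate 3, eWAT wt replicate 1 or eWAT wt replicate 2, this difference had an edgeR adjusted p of up to 0.0575. It did not pass with limma voom (adjusted p = 0.506) or in edgeR with wild type libraries only (adjusted p = 0.0584).

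The last detected gene of cluster c was abundant in iWAT and near the counting floor elsewhere, apart from eWAT ko replicate 2. Hoxc10, a gene of the lumbar and hindlimb region, was at 13.7, 30.4 and 36.0 CPM in iWAT and at 0.0485, 0.181 and 2.77 in eWAT, and in iBAT 5 libraries held 0 counts and 1 held 1 count. Pooled over the libraries, its rate in iWAT was 2426 times that in iBAT, with a counting interval of 435 to 95824 (exact, 95%). It was higher in iWAT than in eWAT by 5.81 ± 0.70 (edgeR adjusted p = 5.36e-05). Hoxc10 was not detected in eWAT, where 114 of its 136 counts came from ko replicate 2. It passed the filter on low counts through iWAT, which fixed the direction of this difference. Of its 31-base words, 92.7% were found in no other transcript, and it shared others with Hoxc5.

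In cluster a, the genes with paralog numbers 9 and 10 were highest in iWAT as well. Hoxa9 was at 0.548, 2.21 and 5.06 CPM in iBAT, 16.5, 26.1 and 42.1 in iWAT and 0.247, 1.47 and 6.24 in eWAT. All iWAT libraries were above all others, and iBAT and eWAT overlapped. Hoxa9 was lower in iBAT than in iWAT, at -3.44 ± 0.70 (edgeR adjusted p = 0.000556) and higher in iWAT than in eWAT by 3.63 ± 0.71 (0.00415). For iBAT against eWAT the difference was 0.19 ± 0.68 (edgeR adjusted p = 0.834), and it was 1.65 (edgeR adjusted p = 0.0492) without eWAT ko replicates 2 and 3, the highest eWAT libraries for this gene.

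Hoxa10 was at 7.55, 13.7 and 16.5 CPM in iWAT and 0, 0.268 and 2.69 in eWAT, and 1 count was present in all iBAT libraries together. Its pooled rate in iWAT was 1135 times that in iBAT, with a counting interval of 203 to 44852, and iWAT exceeded eWAT by 4.49 ± 0.80 (edgeR adjusted p = 0.00193). Hoxa10 was not detected in eWAT, where 111 of its 141 counts came from ko replicate 2. It passed the filter on low counts through iWAT, which fixed the direction of this difference too. Every iWAT library was above every eWAT library for both Hoxa10 and Hoxc10. Hoxa11, the next gene of the cluster, held 0 counts in all iBAT and iWAT libraries.

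**Figure D4:**
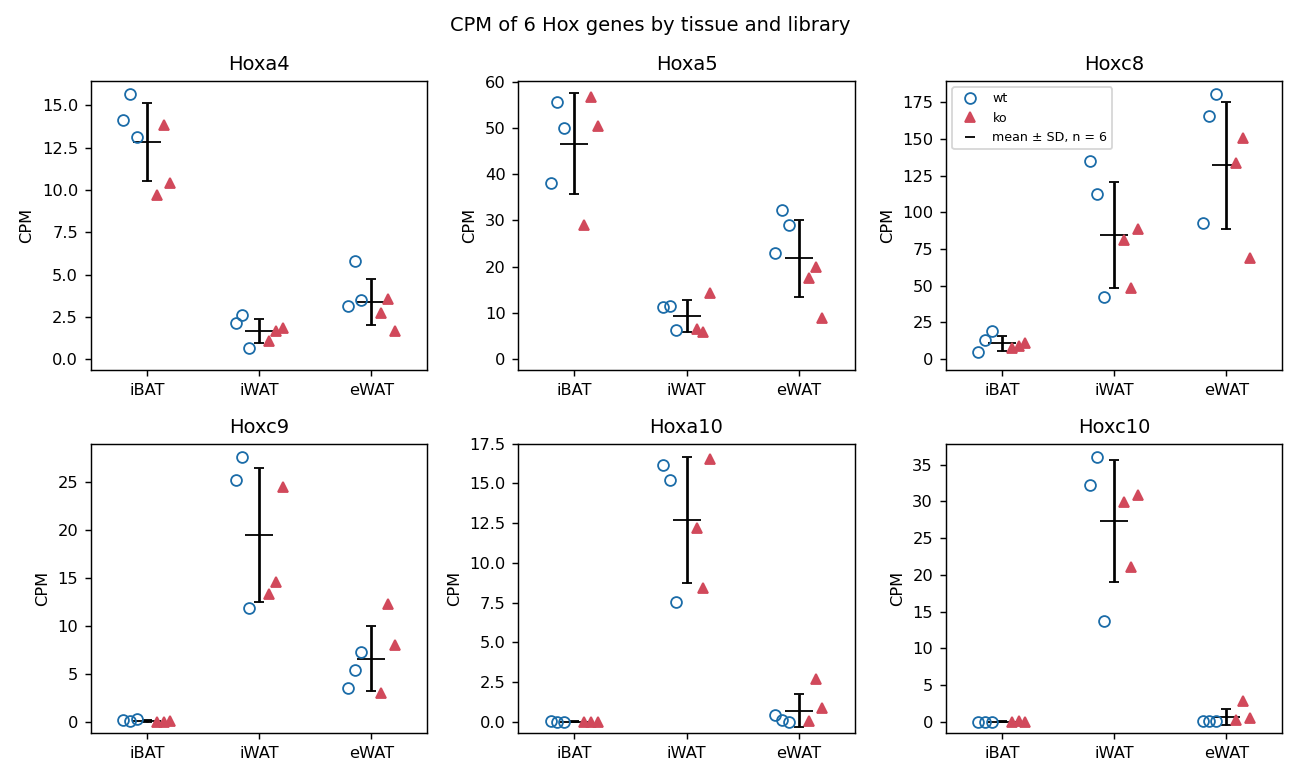
CPM of Hoxa4, Hoxa5, Hoxc8, Hoxc9, Hoxa10 and Hoxc10 in each library by depot, with circles for wild type, triangles for knockout and a bar for the mean with its SD over 6 libraries. Hoxa4 and Hoxa5 are highest in iBAT, Hoxc8 is low in iBAT, and Hoxa10 and Hoxc10 stand at 7.55 to 16.5 and 13.7 to 36.0 CPM in iWAT against at most 2.77 CPM elsewhere.

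In cluster d, whose genes pattern the trunk and later the limbs and genitalia, all 5 tested genes were lower in iBAT than in eWAT and 4 were lower than in iWAT, where 30.2 and 30.3% of all genes tested were. Of these 5, Hoxd3 and Hoxd10 held 13 and 3 counts in all in iBAT and passed the filter through the white depots. Hoxd9 was at 0.548, 1.13 and 2.46 CPM in iBAT, 5.43, 6.60 and 8.84 in iWAT and 4.71, 7.45 and 33.4 in eWAT, with no overlap between iBAT and either white depot. The differences were -2.35 ± 0.47 against iWAT (edgeR adjusted p = 0.000501) and -3.09 ± 0.49 against eWAT (4.88e-05), the latter -2.35 without eWAT ko replicates 2 and 3. Hoxd8 was at 7.30, 7.73 and 12.1 CPM in iBAT, 11.4, 13.2 and 20.5 in iWAT and 21.01, 26.3 and 75.2 in eWAT. Every eWAT library was above every library of the other depots, with -1.92 ± 0.29 for iBAT against eWAT (edgeR adjusted p = 2.65e-05) and -1.19 ± 0.28 for iWAT against eWAT (0.0134). The latter did not pass with limma voom, with wild type libraries only or with the libraries of these depots only (adjusted p = 0.0722, 0.215 and 0.0548).

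Hoxd4 was at 3.30, 4.10 and 6.31 CPM in iBAT, 10.4, 11.7 and 16.3 in iWAT and 13.004, 17.5 and 62.3 in eWAT, and its iBAT libraries lay below all white libraries. The difference was -2.40 ± 0.33 against eWAT (edgeR adjusted p = 1.08e-05) and -1.49 ± 0.32 against iWAT (0.000895). Of the 31-base words of Hoxd4, 50.9% were unique, and of those of Hoxd3 38.9%, since these genes share exons with each other and with Gm28230, so their counts depend on how shared reads were divided. Hoxd10 held 8 to 41 counts per iWAT library, 5 to 62 per eWAT library and 3 in all in iBAT. Its pooled rate was 23.2 times that of iBAT in iWAT, with a counting interval of 7.78 to 114, and 23.7 times in eWAT, with 7.92 to 117. In eWAT, 62 of its 119 counts came from ko replicate 2. The white depots did not separate for Hoxd10, at 0.14 ± 0.63 (edgeR adjusted p = 0.918).

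Cluster b gave no gene higher in iBAT than in a white depot. Its 8 tested genes had 3 lower in iBAT than in iWAT (Hoxb5, Hoxb7 and Hoxb9) and 6 lower than in eWAT (Hoxb3 and Hoxb5 to Hoxb9), beside 30.3 and 30.2% of all genes. Hoxb9 was at 0.517, 0.614 and 0.843 CPM in iBAT, 1.29, 1.75 and 2.39 in iWAT and 1.37, 3.59 and 16.1 in eWAT, so that iBAT lay below both white depots. It was lower in iBAT than in eWAT, at -3.35 ± 0.53 (edgeR adjusted p = 5e-05) and lower in iWAT than in eWAT, at -1.83 ± 0.49 (0.0252). The difference between the white depots was -1.44 (edgeR adjusted p = 0.142) without eWAT ko replicates 2 and 3 and -1.24 (0.0989) without eWAT wt replicate 1, and its edgeR adjusted p was 0.0512 with the mouse as a block. Hoxb5 was at 2.32, 3.20 and 3.62 CPM in iBAT, 4.70, 6.46 and 11.7 in iWAT and 6.60, 11.8 and 36.9 in eWAT, again with iBAT below all white libraries.

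At the head end of clusters a and b, Hoxa2, Hoxa3, Hoxb2 and Hoxb4 passed the test in no contrast over the 18 libraries, with log2 differences between -0.84 and 0.59. With SE of 0.29 to 0.39 for these genes, differences of the size found for Hoxc4 could have been missed. The other genes between these ends, Hoxa6, Hoxa7 and Hoxc6, were lower in iBAT than in eWAT, at -1.01, -0.83 and -0.79, with overlapping libraries. With the mouse as a block, Hoxa6 did not pass against iWAT or eWAT (edgeR adjusted p = 0.0591 and 0.0574), while Hoxb6 and Hoxd3, which did not pass for iBAT against iWAT, did so (0.0343 and 0.0173), Hoxd3 with 13 counts in all in iBAT, so that the filter fixed its direction.

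In 2 libraries of eWAT, both of them knockout, many Hox genes lay outside the other 4. The other 4 were not alike either, since eWAT wt replicate 1 held the highest Hoxb9, at 16.1 CPM, and a share of cluster b of 28.8%, against 14.3 to 17.7% in the eWAT libraries other than ko replicate 3. Epididymis markers in eWAT wt replicate 1 summed to 34.6 CPM, beside 0.129 to 2.67 CPM in the eWAT libraries other than ko replicate 3. Their part in its Hox values was not tested, and this library stayed in the fits without ko replicates 2 and 3. In eWAT ko replicate 3, Hoxb2 to Hoxb8 were above the other eWAT libraries, by 3.13 times the median of the other 4 for Hoxb5 up to 19.4 times for Hoxb8. Hoxb8 held 3740 counts there, or 185 CPM, while the other 5 eWAT libraries lay at 4.16 to 17.6 CPM. Hoxd3, Hoxd4, Hoxd8 and Hoxd9 were above the others as well, Hoxd9 by 5.03 times the median and Hoxd4 by 4.08 times. Clusters a and c went the other way, with 7 of 11 and 4 of 9 genes below the other 4 libraries, and median ratios over the genes of 0.459 and 0.468. The exceptions were Hoxa9, Hoxa10, Hoxc9 and Hoxc10, which were above.

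Epididymis markers in this library summed to 5095 CPM and testis markers to 86.3 CPM, and adipocyte markers were at 9165 CPM, beside 13340 to 20968 CPM in the other eWAT libraries. Their part in the Hox values of this library was not tested. In all, 414 genes with at least 100 counts in it were more than 10 times above every other eWAT library, led by Crisp1, a secreted protein of the epididymis, at 2987 CPM.

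In eWAT ko replicate 2 the genes that stood out had high paralog numbers. Hoxa9 was at 6.24 CPM against 0.247 to 2.07 CPM in the 4 libraries other than ko replicates 2 and 3, Hoxa10 at 2.69 against 0 to 0.440 CPM, and Hoxc10 at 2.77 against 0.0485 to 0.215 CPM. Hoxc9, Hoxd10, Hoxa11, Hoxa13 and Hoxd11 were also above those 4 libraries, as was Hoxa2 by a small margin, whereas no gene of cluster b was. Its epididymis, testis, muscle and lymph node markers lay within the range of the other eWAT libraries. Genes with at least 100 counts more than 10 times above every other eWAT library numbered 2, Ren1, which encodes renin, with 173 counts, and Actc1, a muscle actin, with 109.

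**Figure D5:**
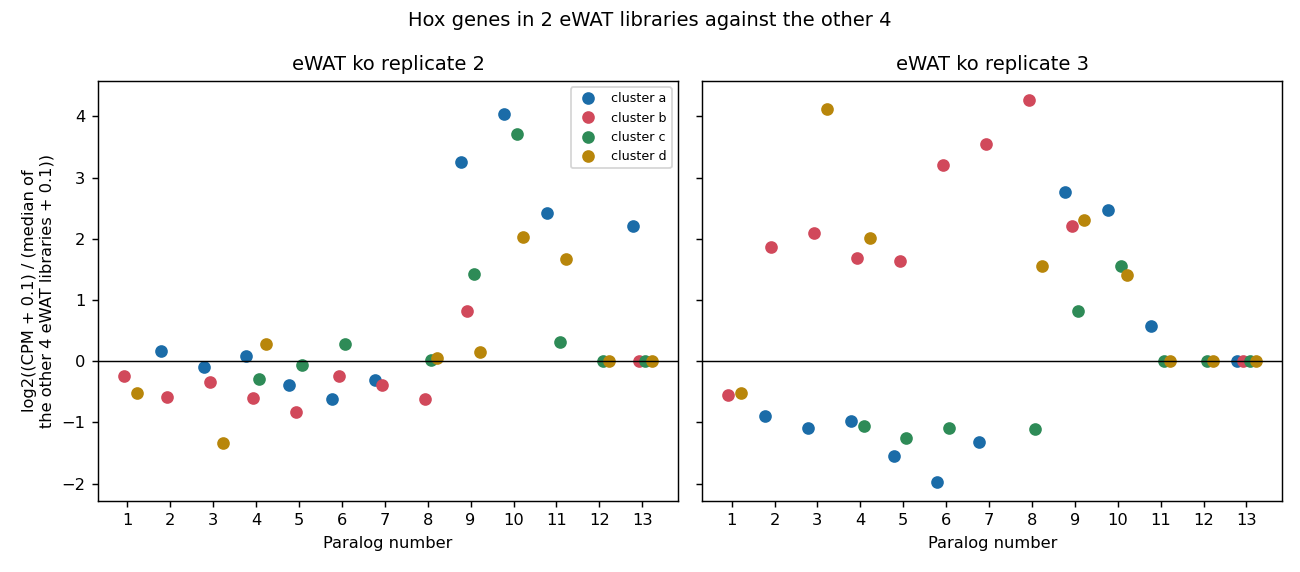
Log2 ratio of (CPM + 0.1) in eWAT ko replicates 2 and 3 to the median of the other 4 eWAT libraries, for the Hox genes against paralog number, coloured by cluster. Replicate 2 lies furthest above 0 at paralogs 9 and above of clusters a, c and d, and in replicate 3 Hoxb2 to Hoxb8 and Hoxd3 to Hoxd9 lie above 0 and the genes of clusters a and c up to paralog 8 below it.

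Both libraries enter the eWAT averages above. Without them, the differences between iWAT and eWAT were -0.10 for Hoxb8 in place of -1.91, 0.20 for Hoxb7 in place of -1.15, and 0.03 for Hoxd9 in place of -0.74, none of which had passed the test. For iBAT against eWAT the call held without them for Hoxb5, Hoxb6, Hoxb7 and Hoxb8, at -1.84, -1.35, -1.34 and -1.63 in place of -2.30, -2.44, -2.65 and -3.47 (edgeR adjusted p = 1.21e-05, 0.00141, 0.000353 and 0.00210). The iWAT genes were further from eWAT without them, at 5.11 for Hoxa9, 6.49 for Hoxa10, 2.22 for Hoxc9 and 7.66 for Hoxc10. Both libraries were the highest of eWAT for these genes, so a wider difference without them was fixed in advance. The eWAT libraries that remained held 0 to 10 counts of Hoxa10 and 1 to 5 of Hoxc10, so these fitted values are uncertain. Over the 29 Hox genes that could be tested without them, the counts of calls became 22 for both contrasts with iBAT and 7 between iWAT and eWAT, with 52.1, 45.7 and 5.38% of all genes called for iBAT against iWAT, iBAT against eWAT and iWAT against eWAT.

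The loss of Gm15551 was compared in each depot and across depots. No Hox gene passed the test across depots (0.00534% of all genes did), in iBAT (0%), in iWAT (0%), in eWAT (0.00534%) or for the interaction of genotype with depot (0%), and the Wald and likelihood ratio tests of DESeq2 gave 0 as well. At an unadjusted p under 0.05, edgeR gave 1 Hox gene across depots, 1 in iBAT, 0 in iWAT, 7 in eWAT and 1 for the interaction, out of 28, and DESeq2 gave 2, 1, 0, 8 and 1, with 2.54, 1.23, 2.72, 4.47 and 1.68% of all genes. The shares of all genes at that level in edgeR were 2.19, 1.27, 2.22, 4.35 and 1.41% in the same order. The 7 genes in eWAT were Hoxc10, Hoxc4, Hoxb8, Hoxa10, Hoxb7, Hoxa5 and Hoxd4, and without eWAT ko replicate 3 the number was 5, with 2.11% of all genes. Without the others in turn it was 13 (ko replicate 1), 11 (ko replicate 2), 9 (wt replicate 1), 1 (wt replicate 2) and 1 (wt replicate 3), with 7.37, 7.44, 4.83, 3.04 and 2.90% of all genes.

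Hoxc10 had the smallest p of these. In eWAT it was at 0.0879, 0.0485 and 0.148 CPM in wild type replicates 1 to 3 and at 0.215, 2.77 and 0.545 CPM in the knockout. The knockout libraries were all above the wild type libraries, by 3.61 ± 0.91 on the log2 scale (edgeR unadjusted p = 0.00164, adjusted p = 1.0; DESeq2 adjusted p = 0.0982). The wild type values rest on 1 to 3 counts and the largest knockout value on replicate 2. In iWAT, where Hoxc10 is abundant, it was at 32.2, 36.0 and 13.7 CPM in wild type and 29.9, 21.1 and 30.9 CPM in the knockout, with overlap. The interaction of genotype with depot for Hoxc10 had an edgeR unadjusted p of 0.0199 and an adjusted p of 1.0.

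Across depots Hoxc10 was at 1.27 ± 0.62 (edgeR unadjusted p = 0.0578, adjusted p = 0.9999) and Hoxa4 at -0.40 ± 0.23. In iBAT the smallest p was that of Hoxc9, which held 8 counts in the wild type and 1 in the knockout. Hoxb5 came first in iWAT, at -0.57 ± 0.49 (edgeR unadjusted p = 0.263).

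Other genes tied to Hox function were read from lists. Hox proteins bind DNA together with TALE homeodomain proteins of the Pbx, Meis and Pknox families. Of 9 such genes, all tested, 4 were lower in iBAT than in iWAT and 4 lower than in eWAT, none was higher, and 2 were lower in iWAT than in eWAT, with median log2 differences of -0.42, -0.34 and -0.07. Of all genes tested, 30.3, 30.2 and 4.50% were lower in these contrasts. Meis3 averaged 2.11 CPM in iBAT, 8.80 in iWAT and 8.32 in eWAT and was lower in iBAT, at -2.06 ± 0.20 and -1.98 ± 0.20 (edgeR adjusted p = 2.25e-07 and 2.5e-07). Pknox2 was lower in iBAT, at -2.50 ± 0.49 and -2.11 ± 0.49 (0.000431 and 0.00161), Meis1 against eWAT at -1.55 ± 0.24 (3.17e-05) and Meis2 against iWAT at -0.42 ± 0.15 (0.0239), which lost its call when any 1 of 4 libraries was left out (edgeR adjusted p up to 0.0620).

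Of 19 listed noncoding and flanking genes of the clusters, 18 were in the table and 6 were tested. Hotairm1, a noncoding RNA of cluster a, averaged 10.7 CPM in iBAT, 3.20 in iWAT and 5.32 in eWAT. It was higher in iBAT by 1.74 ± 0.23 and 1.02 ± 0.22 and lower in iWAT than in eWAT, at -0.72 ± 0.22 (edgeR adjusted p = 7.17e-06, 0.000924 and 0.0481), the order of depots seen for Hoxa4 and Hoxa5. Hoxaas3, an antisense RNA of cluster a, was higher in iBAT than in iWAT by 0.70 ± 0.29 (0.0473). Leaving out single libraries ended this call for 12 of 18 and that of Hotairm1 between the white depots for 15 (edgeR adjusted p up to 0.123 and 0.115). Haglr, a noncoding RNA of cluster d, held 6 counts in all in iBAT and so passed the filter through the white depots. It held 162 counts in eWAT, 90 of them in eWAT ko replicate 3, and its pooled rate in eWAT was 16.1 times that in iBAT, with a counting interval of 7.26 to 44.6. Hoxb5os, a noncoding RNA of cluster b, was lower in iBAT than in eWAT, at -2.06 ± 0.70 (edgeR adjusted p = 0.0201). Hoxb5os was highest in eWAT ko replicate 3 too, was at -0.72 (edgeR adjusted p = 0.150) without it and lost its call without iBAT ko replicate 1 as well. No strand setting is known for the counts, so reads of antisense genes and of the Hox genes they overlap, such as Hoxb3 with Hoxb3os over 52.9% of its exon bases, cannot be told apart.

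By position, 46 other annotated genes lie between the first and last Hox gene of the clusters, 15 of which were tested. Of these, 5 were higher and 1 lower in iBAT than in iWAT, 3 were higher and 5 lower in iBAT than in eWAT, and 2 were lower in iWAT than in eWAT. The background was 24.0 and 30.3%, 24.4 and 30.2%, and 4.50% of all genes tested. The microRNA genes of the clusters held at most 10 counts in any library, a value reached by Mir196a-1, which lies between Hoxb13 and Hoxb9, in eWAT ko replicate 2, and mature microRNAs are not measured in polyadenylated RNA.

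Among 28 genes that regulate Hox transcription, 25 were tested: 4 stood higher and 6 lower in iBAT than in iWAT, 7 were higher and 5 lower in iBAT than in eWAT, and 2 were higher in iWAT than in eWAT. Of all genes tested, 24.0 and 30.3%, 24.4 and 30.2%, and 5.70% were called so. Rarb, a receptor of retinoic acid, which activates Hox genes of low paralog number in the embryo, averaged 10.2 CPM in iBAT, 1.62 in iWAT and 0.858 in eWAT, with 2.68 ± 0.36 and 3.57 ± 0.38 for iBAT against the white depots (edgeR adjusted p = 1.13e-05 and 5.97e-07). The related receptor gene Rarg was lower in iBAT, at -0.66 ± 0.12 and -0.67 ± 0.12 (0.000213 and 0.000175). Ezh2, the methyltransferase of Polycomb repressive complex 2, and Ring1, a subunit of complex 1, were higher in iWAT than in eWAT by 0.70 ± 0.21 and 0.47 ± 0.14 (0.0435 and 0.0457), calls that were lost when any 1 of 11 and of 14 libraries was left out (edgeR adjusted p up to 0.102 and 0.105). Ezh2 was highest in iWAT wt replicate 3, the library with the most lymph node markers, and the difference was 0.57 without it and without the 4 libraries that held markers of other tissues (0.102 and 0.153). Without these 4 the difference for Ring1 was 0.72 (edgeR adjusted p = 0.00237). Kmt2a, a methyltransferase that maintains Hox transcription, was lower in iBAT than in iWAT, at -0.49 ± 0.13 (0.00362). It was highest in iWAT wt replicate 3 and ko replicate 2, which held lymph node markers, and the difference was -0.24 (0.0237) without the 4 libraries. Its cofactor Men1 was higher in iBAT, by 0.46 ± 0.09 and 0.46 ± 0.09 (0.00035 and 0.000359). No gene of these lists passed the test for the genotype across depots.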

How the data were processed

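Per the labels and the study's methods, polyadenylated RNA was extracted from 3 fat depots of 6 mice and sequenced in paired ends. The authors trimmed reads with cutadapt, quantified transcripts with Salmon against a GENCODE mouse annotation (GRCm38), and deposited estimated counts per gene as whole numbers. Tool versions, strandedness and how transcripts were summed to genes are not given in the sources used here. How Salmon divided reads between genes with shared exons sets their counts.

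Groups were taken from the sample titles. Counts were tested as deposited by quasi-likelihood in edgeR 4.0.16 (R 4.3.3, filterByExpr, TMM scaling, Benjamini-Hochberg adjustment over 18728 genes, threshold 0.05). Depots were compared in a model of depot and genotype over 18 libraries, and genotypes within a depot and the interaction in a model of the 6 groups. Each SE was computed from the fold change and its F statistic. Totals were 14997901 to 34389586 counts per library, CPM used these totals after TMM scaling, and levels per length used the union of exons in GENCODE M21. DESeq2 1.42.0 and limma 3.58.1 (voom) were alternatives. The edgeR test of iBAT against iWAT, without the filter on low counts, was tried on simulated data with known changes.

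The same mouse gave all 3 depots, so the mouse pairs libraries across depots, and the correlation of same-mouse deviations from the group means was -0.165 to 0.326. Replicate numbers do not pair mice of different genotype. No libraries of a group differed by less than sampling noise.

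The members and gene lists were chosen with earlier results of these data known. Values were given for up to 6 Hox genes with the smallest adjusted p in each direction of each depot contrast, for those detected in 1 depot and at most 3 counts in another, for up to 3 per genotype contrast, and for up to 4 per direction from the lists of other genes. Other Hox genes were named by count or range. A Hox gene and a gene of the lists enter the counts, sums and correlations but are not reported here, and the Hox gene is left out of the plots of single genes.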

Additional observations from a re-analysis of the deposited data

Results flagged for a closer look

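In groups of 6 libraries, the gap of the highest or lowest library to its nearest neighbour was compared with the range at Dixon's critical value. Of 100 comparisons over Hox genes and summed levels 20 passed it, where chance gives about 1 in 20, or 5. The passing values came from 4 libraries, 13 from eWAT ko replicate 3, 5 from eWAT ko replicate 2 and 1 each from iBAT ko replicates 1 and 3. They are not independent, since neighbouring genes moved together.

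In eWAT ko replicate 3 Hoxb2 was at 37.98 CPM, Hoxb3 at 86.7, Hoxb4 at 57.09, Hoxb5 at 36.94, Hoxb6 at 96.85, Hoxb7 at 75.01 and Hoxb8 at 185.2 CPM, each above the next eWAT library, which lay at 11.34 to 21.98 CPM. In cluster d, Hoxd3 was at 24.61 CPM, Hoxd4 at 62.29, Hoxd8 at 75.16 and Hoxd9 at 33.37 CPM, where the next libraries were at 3.43, 23.17, 33.81 and 10.17 CPM. The summed level was 239.6 CPM per kb for cluster b and 70.53 CPM per kb for cluster d, against 47.51 and 24.69 in the next library. Epididymis markers summed to 5095 CPM in this library and to at most 34.6 CPM in the other eWAT libraries, and their part in these values was not tested.

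In eWAT ko replicate 2 the genes were Hoxa10 at 2.693 CPM, Hoxa11 at 0.4367, Hoxa13 at 0.3639, Hoxc10 at 2.766 and Hoxd11 at 0.2184 CPM, with the next library at 0 to 0.842 CPM. In iBAT, Hoxb2 was lowest in ko replicate 1, at 3.758 CPM with the next library at 7.985, and Hoxd3 was highest in ko replicate 3, at 0.5151 CPM with the next at 0.1566, a gene that shares exons with Hoxd4 and Gm28230.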

How the results depend on the processing

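Calls of Hox genes between depots were recomputed under other scalings, filters, tests and sets of libraries. No direction turned for the 29 named gene results. Among Hox genes that had not passed, some did, such as Hoxb4 between iBAT and eWAT, at -0.28 and at 0.17 without eWAT ko replicates 2 and 3. Between iWAT and eWAT the 9 calls became 5 with wild type libraries only (9 in place of 18), while the share of all genes called went from 10.2 to 1.42%. The share of paralogs 9 to 13 in iWAT was 23.3% in place of 24.9% with the length of the longest transcript. Leaving out each library in turn gave 14 to 21 calls for iBAT against iWAT, 20 to 21 for iBAT against eWAT, 6 to 11 for iWAT against eWAT, 20 to 23 for any depot and 0 for every genotype contrast, while 47.8 to 56.8%, 48.7 to 56.02%, 5.49 to 10.7% and 55.3 to 61.6% of all genes were called in the depot tests. With limma voom, the contrasts of 2 depots gave 14, 16 and 6 calls out of 28 in the same order, with 49.1, 49.0 and 4.85% of all genes. DESeq2 gave 17, 17 and 11, with 55.3, 55.1 and 14.4% of all genes. Of 29 named gene results, 8 concern a gene not detected in 1 of the depots compared, whose direction the filter fixed, and are not counted. Of the other 21, 15 kept their call under all alternatives and 6 lost it at least once, in 47 of 609 values. These were Hoxa4, Hoxb9, Hoxc9 and Hoxd8 between iWAT and eWAT and Hoxc4 and Hoxc5 between iBAT and iWAT. Wild type libraries only ended the calls of all 6, limma voom those of Hoxb9, Hoxc9 and Hoxd8, the libraries of the depots compared only those of Hoxa4, Hoxb9, Hoxd8 and Hoxc5, and no filter those of Hoxa4 and Hoxc5. Leaving out single libraries ended the call of Hoxa4 between iWAT and eWAT for 10 libraries (all but eWAT ko replicate 3 of eWAT, iWAT ko replicates 1 and 2, iBAT wt replicates 2 and 3 and iBAT ko replicate 3, edgeR adjusted p up to 0.0892), of Hoxb9 for 4 (eWAT ko replicate 3, eWAT wt replicate 1, iWAT ko replicate 2 and iWAT wt replicate 3, up to 0.0989) and of Hoxc5 between iBAT and iWAT for 9 (all of iBAT but wt replicate 3, iWAT ko replicates 2 and 3 and eWAT wt replicates 2 and 3, up to 0.0909). Among the other Hox genes, Hoxa6, Hoxb7 and Hoxd8 between iBAT and iWAT lost theirs for 6, 12 and 7 libraries (up to 0.0824, 0.102 and 0.0878), and between iBAT and eWAT Hoxa6 did for 7 (up to 0.0910) and Hoxc6 without eWAT ko replicate 2 (0.0588). Genes that had not passed did so without single libraries, between iBAT and iWAT Hoxa3 for 2, Hoxb6 for 4, Hoxb8 without eWAT ko replicate 3 and Hoxd3 for 5, between iBAT and eWAT Hoxa3 for 1, and between iWAT and eWAT Hoxb5 for 2 and Hoxd4 for 1.

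With the mouse as a block, replacing genotype, the counts of calls were 19, 20 and 8 for the 3 depot contrasts, 22 for any depot and 0 for the interaction, and no call changed other than those given for Hoxa6, Hoxb6, Hoxb9 and Hoxd3. Of all genes, 55.6, 55.7 and 9.25% were called in these depot contrasts and 60.9% for any depot. With the replicate number as a block, which pairs no animals, the genotype contrasts gave 0 calls. Leaving out eWAT ko replicates 2 and 3 together was chosen after seeing the data. Over all genes, calls between iWAT and eWAT numbered 1911, and 908 with limma voom, 854 with the libraries of these depots only and 247 with wild type libraries only. With 3 mice per genotype and few counts, small genotype differences at low Hox genes were not detectable.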
